A study of Mus musculus with 4 samples.

Results

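Chromatin accessibility was examined at 10 genes of vascular endothelial cells, out of 21000 protein-coding genes with a curated RefSeq start site. The genes were Pecam1, Cdh5, Cldn5, Esam, Robo4, Emcn, Egfl7, Vwf, Icam2 and Nos3. They were picked as endothelial junction and surface genes and were in part selected on promoter peaks of these same libraries, since the peaks at Pecam1 and Cdh5 had already been seen. Their pattern is therefore given as a description, with no test. All 10 were matched to curated start sites on the mouse assembly mm10 (GRCm38), and 12 start sites were found, 3 of them at Egfl7 and 1 at each other gene. Vwf and Egfl7 encode secreted proteins and Nos3 an enzyme, so the name of the group fits those 3 genes less closely than the others.

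The data were ATAC-seq peak lists of visceral adipose tissue from 8-week-old mice of the outbred stock CD-1. ATAC-seq uses a transposase that cuts open chromatin and tags the cut ends, and stacks of reads mark accessible DNA. There were 2 control libraries and 2 BPA libraries, made from nuclei of the whole tissue and called control 1, control 2, BPA 1 and BPA 2. The BPA mice descended from gestating dams that received bisphenol A by intraperitoneal injection, at 50 mg/kg and from embryonic day 7.5 to day 13.5. By the study's text, the sampled mice came from later generations that were not treated themselves. The control mice descended from dams given the sesame oil vehicle. Sample labels and the study's text disagreed on the generation of the BPA mice, and neither a sex nor a batch was labelled. The study's text speaks of 4 mice for the 4 libraries.

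Endothelial cells line blood vessels and hold to each other through adherens and tight junctions, which set how easily fluid, solutes and leukocytes cross the vessel wall. In adipose tissue a dense capillary net surrounds the fat cells, and its lining cells stand beside adipocytes, stromal cells and leukocytes. Cdh5 encodes VE-cadherin, the main adhesion protein of endothelial adherens junctions, and Cldn5 and Esam act at tight junctions. Pecam1 and Icam2 are adhesion molecules that leukocytes meet on the vessel wall, Robo4 is a receptor of the Roundabout family and Emcn is a mucin-like protein of the luminal surface. In bulk tissue, fewer endothelial nuclei and less accessible DNA per endothelial nucleus cannot be told apart.

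The 200 bases before the start site are shown for 5 of the 7 genes whose promoter carried a peak in both BPA libraries but in no control library, namely Robo4, Emcn, Egfl7, Vwf and Icam2, because these sequences lie under or beside the peaks described here. They were read from the RefSeq assembly GRCm38, run 5′ to 3′ on the strand of the gene and overlap no curated exon. Capitals mark any of 6 motifs searched on both strands. The letters searched were GGAAGT for the ETS factors and ACAANG for the SOX factors. For the GATA factors of blood and vessels the letters were AGATAA, and for the forkhead factors (FOX) they were GTAAACA. For AP-1 they were TGANTCA, and for the GC box that Sp factors bind they were GGGCGG. The intervals were chr9:37401772-37401971 on the plus strand for Robo4 and chr3:137340878-137341077 on the plus strand for Emcn. They were chr2:26583665-26583864 on the plus strand for the second start site of Egfl7, chr6:125552748-125552947 on the plus strand for Vwf and chr11:106382782-106382981 on the minus strand for Icam2.
Robo4: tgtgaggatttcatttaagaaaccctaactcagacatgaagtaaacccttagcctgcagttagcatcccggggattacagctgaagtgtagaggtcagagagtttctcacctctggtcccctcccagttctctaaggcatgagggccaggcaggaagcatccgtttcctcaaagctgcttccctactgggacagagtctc
Emcn: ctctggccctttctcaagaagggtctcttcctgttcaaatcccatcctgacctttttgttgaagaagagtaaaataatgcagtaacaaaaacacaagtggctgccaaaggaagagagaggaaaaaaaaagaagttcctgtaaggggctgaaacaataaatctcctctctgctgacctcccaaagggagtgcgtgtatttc
Egfl7: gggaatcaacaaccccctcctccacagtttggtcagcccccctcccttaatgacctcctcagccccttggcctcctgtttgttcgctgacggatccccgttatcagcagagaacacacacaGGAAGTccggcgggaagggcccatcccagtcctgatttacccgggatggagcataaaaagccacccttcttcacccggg
Vwf: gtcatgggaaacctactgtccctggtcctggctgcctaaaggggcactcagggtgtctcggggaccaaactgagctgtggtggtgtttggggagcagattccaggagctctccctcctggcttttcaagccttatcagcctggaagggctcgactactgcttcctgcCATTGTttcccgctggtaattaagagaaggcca
Icam2: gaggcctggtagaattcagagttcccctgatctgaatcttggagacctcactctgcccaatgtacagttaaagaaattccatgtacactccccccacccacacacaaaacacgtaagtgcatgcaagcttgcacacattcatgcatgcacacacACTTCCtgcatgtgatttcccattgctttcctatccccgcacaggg

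Over 10 start sites of 8 of the genes, those of Pecam1 and Cdh5 being left out of the motif counts, the ETS letters occurred before 3, compared with 17.2% of all 26030 coding start sites. These 3 were at Icam2 and at the first and second start sites of Egfl7. The SOX letters occurred at 2 start sites, those of Vwf and Nos3, compared with 26.7% of all. The GC box occurred at 4, those of Cldn5, Esam, Nos3 and the third start site of Egfl7, compared with 42.1%. The GATA, FOX and AP-1 letters occurred before none of the 10 and before 6.47%, 1.97% and 4.77% of all start sites. Robo4 and Emcn had none of the 6 motifs in this window. Matches of different motifs did not overlap at these start sites, and a match is a run of letters rather than a bound site.

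The promoters of the same 8 genes were poor in CpG dinucleotides beside those of all coding genes. The CpG ratio is the number of CpG dinucleotides over that expected from the base composition, taken here from 250 bp before to 50 bp after the start site. Its median was 0.335 over the 10 start sites, with a range of 0.106 at Robo4 to 0.945 at the third start site of Egfl7, and the median over all coding start sites was 0.581. The G+C content did not set them apart in the same way, with medians of 58.3% and 56.7%. Of the 10 start sites, 9 had a ratio under 0.6, beside 13381 of all 26030 coding start sites. Among start sites of genes with promoter peaks in both BPA libraries but no control, 397 of 645 had one. The median ratio was 0.449 over 645 start sites of genes with promoter peaks in both BPA libraries but no control, and 0.753 over 16064 start sites of genes with a promoter peak in every library.

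**Figure D1:**
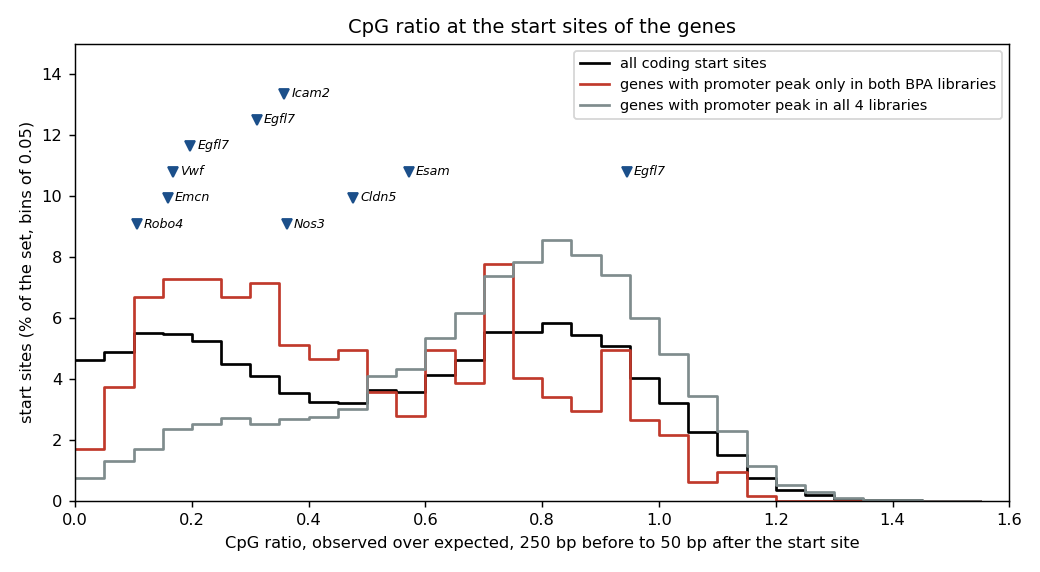
CpG ratio (x axis, observed over expected) at start sites, with the share of start sites in bins of 0.05 on the y axis for all coding genes, for genes with a promoter peak only in both BPA libraries and for genes with one in all 4 libraries. Triangles mark 10 start sites of 8 of the endothelial genes at their ratio, with heights chosen only for legibility. Of them 9 lie under 0.6, beside 13381 of all 26030 coding start sites.

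A promoter peak was a peak of the deposited list of a library that touched the stretch within 500 bp of a start site. Control 1 had such a peak at 2 of the 10 genes, control 2 at 3, BPA 1 at 10 and BPA 2 at 10. The mean count was 2.5 ± 0.707 (SD, n = 2) for controls, against 10.0 ± 0.0 (SD, n = 2) for BPA. The groups did not overlap, and the smallest two-sided p that an exact permutation test allows for 2 libraries against 2 is 0.333. Over all coding genes the share with a promoter peak was 62.5% (control 1), 61.4% (control 2), 64.1% (BPA 1) and 67.4% (BPA 2), so the endothelial genes were far below the share of all genes in the controls and above it in BPA.

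At 7 of the 10 genes, Pecam1, Cdh5, Robo4, Emcn, Egfl7, Vwf and Icam2, both BPA libraries but no control library held the promoter peak. This pattern held for 524 of all coding genes, or 2.5%, and for 3.92% of the 13357 coding genes with a peak in both BPA libraries. Among 9958 coding genes whose start sites all had a CpG ratio under 0.6 it held for 2.97%, and of the 8 endothelial genes examined, 7 were in that class and 4 of these showed it. The opposite pattern, a peak in both controls and in neither BPA library, held for none of the 10 genes and for 0.433% of coding genes. Esam and Nos3 had a promoter peak in all libraries, as did 57.9% of coding genes, and Cldn5 had one in control 2 and both BPA libraries. With start sites from the GENCODE annotation, Pecam1 and Egfl7 lost the pattern and 5 genes had it, and among the best 20000 peaks of each library 3 genes had it, Cldn5, Icam2 and Nos3. Because the genes were selected with part of this contrast known, the counts are set beside these shares without a further reading.

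**Figure D2:**
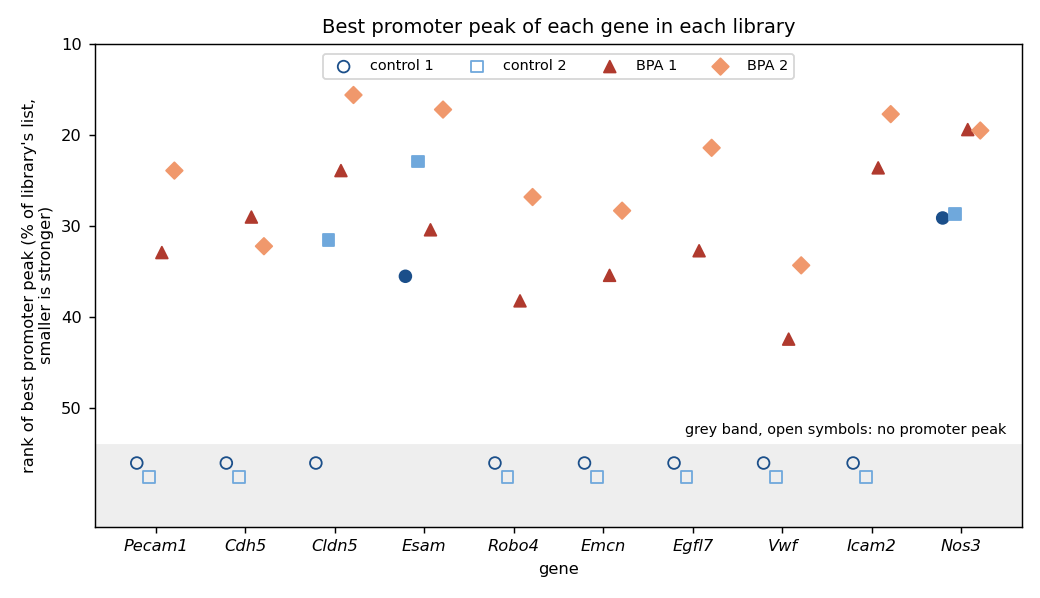
Rank of the best promoter peak of each gene (y axis, percent of the library's list, reversed so that stronger peaks are higher) in each of the 4 libraries, with open symbols in the grey band for libraries without a promoter peak. All 7 genes with open symbols for both controls have filled symbols for both BPA libraries, at ranks from 17.7 to 42.4.

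Peaks were compared between libraries by rank, the position of a peak when its list is sorted by q-value, given as a percent of the list so that a small value is a strong peak. The fold is the stack of reads at the summit over the local background, and the pile-up is the whole number of overlapping reads recovered from the deposited fold and p-value. The pile-up depends on depth, and the libraries differed in it. The median pile-up over all peaks was 22 for control 1 and 23 for control 2, against 19 for BPA 1 and 38 for BPA 2. The lowest local background, a rough measure of depth, was 2.85, 2.70, 1.16 and 3.80 in the same order, so BPA 1 was the shallowest library and BPA 2 the deepest. At that background, the smallest pile-up called was 9 in both controls, 6 in BPA 1 and 11 in BPA 2.

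Pecam1 lies on the minus strand of chromosome 11 with its start site at 106715281. In BPA 1 its promoter peak, chr11:106715028-106715576, had rank 32.9, fold 6.12 and a pile-up of 30. In BPA 2 the peak, chr11:106714907-106715707, had rank 23.9, fold 5.60 and a pile-up of 86. Both summits lay just before the start site, at 17 bp and 16 bp. The nearest peak of control 1 began 7410 bp upstream and that of control 2 began 4058 bp downstream, so neither control list held a peak close to the start site.

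Cdh5 lies on the plus strand of chromosome 8 with its start site at 104101625. In BPA 1 its peak had rank 29.0, fold 5.53 and a pile-up of 39, and in BPA 2 rank 32.2, fold 3.79 and a pile-up of 96. The summits lay 1 bp and 27 bp upstream of the start site. The BPA 2 peak was 1181 bp wide and the BPA 1 peak 335 bp wide, so less than 50% of the wider peak was shared. The nearest control peaks were 2052 bp upstream in control 1 and 9164 bp downstream in control 2.

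Robo4 and Esam are neighbours on the plus strand of chromosome 9, with 114 kb between the end of Robo4 and the start of Esam. They are described together as 1 locus, but the counts of genes and windows take them separately. At Robo4 (start site 37401972) the promoter peak had rank 38.2, fold 5.41 and a pile-up of 29 in BPA 1. In BPA 2 it had rank 26.8, fold 5.06 and a pile-up of 84, but this peak was 2476 bp wide and its summit lay 1228 bp upstream, compared with 9 bp downstream in BPA 1. When the summit rather than the whole peak had to lie in the promoter, Robo4 therefore lost the BPA pattern. At Esam (start site 37528089) the control ranks were 35.5 and 22.9 and the BPA ranks 30.4 and 17.2. The folds at Esam were 3.29 and 4.18 in controls and 3.84 and 3.87 in BPA. Neither ranks nor folds separated the groups at Esam, but the local background did, at 4.24 and 4.50 times the lowest of the library in controls and 12.4 and 12.6 times in BPA. A higher multiple in both BPA libraries was the rule, found at 91.2% of the coding genes with a promoter peak in every library, with medians of 2.89 and 2.66 in controls and 5.70 and 6.90 in BPA. By promoter peak the neighbours differed in pattern, Robo4 having promoter peaks only in BPA and Esam in every library.

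Emcn lies on the plus strand of chromosome 3 with its start site at 137341078. Its promoter peak had rank 35.4, fold 7.56 and a pile-up of 21 in BPA 1, and rank 28.3, fold 6.54 and a pile-up of 61 in BPA 2. Both summits lay just inside the gene, 146 bp and 158 bp downstream of the start site. Emcn was the gene with the widest empty stretch in controls, with the nearest peak 47099 bp upstream in control 1 and 47539 bp upstream in control 2.

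Egfl7 encodes a secreted protein of the vascular matrix and carries the microRNA genes Mir126a and Mir126b inside its transcript. Its 3 start sites on the plus strand of chromosome 2 lie at 26581083, 26583865 and 26586636. No library had a peak at the first. At the second, BPA 1 had rank 32.7, fold 4.23 and a pile-up of 47, and BPA 2 had rank 21.4, fold 3.44 and a pile-up of 172. At the third, the ranks were weaker, 84.2 in BPA 1 and 37.0 in BPA 2. Within 500 bp of the starts of the microRNAs the pattern was another one, since the peaks there were those of control 2, the better one at rank 52.2, and of BPA 1 at rank 92.2.

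Vwf encodes von Willebrand factor, the plasma protein that platelets bind at an injured vessel. Its start site lies on the plus strand of chromosome 6 at 125552948. The promoter peak had rank 42.4, fold 7.18 and a pile-up of 17 in BPA 1, and rank 34.3, fold 6.58 and a pile-up of 48 in BPA 2. These were the weakest ranks among the 10 genes in both BPA libraries, although the folds were among the higher ones, and the summits lay 3 bp on either side of the start site. The nearest control peaks lay 19749 bp and 19532 bp downstream, in a region of the gene body that was accessible in every library.

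Icam2 lies on the minus strand of chromosome 11 with its start site at 106382781, 332 kb from that of Pecam1. Its promoter peak had rank 23.6, fold 7.65 and a pile-up of 35 in BPA 1, and rank 17.7, fold 6.41 and a pile-up of 107 in BPA 2. Icam2 thus had the strongest ranks of the 7 genes in both BPA libraries. The summits lay 167 bp and 209 bp downstream of the start site. The nearest control peaks were 4723 bp upstream in control 1 and 5031 bp upstream in control 2. They belong to a region, chr11:106387504-106388338, with a peak in every library. That region covers the upstream end of the full annotated span of Icam2, at 106388139, which is not a curated start site. Its ranks were 30.5 and 90.0 in controls and 54.9 and 37.2 in BPA.

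Nos3 encodes the endothelial nitric oxide synthase, whose product relaxes vessels, and its start site lies on the plus strand of chromosome 5 at 24364819. The ranks of its promoter peak were 29.1 and 28.7 in the controls against 19.4 and 19.5 in the BPA libraries. The groups did not overlap at Nos3, with the stronger ranks in BPA. Of the 12157 coding genes with a promoter peak in every library, 40.7% likewise had both BPA ranks ahead of both control ranks, so the order at Nos3 was a common one. The folds at Nos3 were 4.22 in either control, 6.72 in BPA 1 and 4.90 in BPA 2. The summits lay 307 bp and 406 bp downstream in controls, 124 bp upstream in BPA 1 and 114 bp downstream in BPA 2.

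Cldn5 encodes the main claudin of endothelial tight junctions, and its start site lies on the plus strand of chromosome 16 at 18776847. The promoter peak of control 2 had rank 31.5, and those of BPA 1 and BPA 2 had ranks 23.9 and 15.6. Control 1 lacked one, but a peak of rank 70.6 in that library began 543 bp downstream, just outside the limit of 500 bp, and the control 2 peak, which began 231 bp downstream, was just inside it. The summit of the control 2 peak lay 795 bp downstream, whereas those of BPA lay 100 bp upstream and 52 bp downstream of the start site. Both control peaks thus covered the transcribed side of Cldn5 and both BPA peaks reached across the start site.

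In order of the mean rank over the BPA libraries, Nos3 came first at 19.4 ± 0.0707 (SD, n = 2), then Cldn5 at 19.8 ± 5.87 and Icam2 at 20.6 ± 4.17. Esam followed at 23.8 ± 9.33, Egfl7 at 27.1 ± 7.99, Pecam1 at 28.4 ± 6.36, Cdh5 at 30.6 ± 2.26, Emcn at 31.9 ± 5.02, Robo4 at 32.5 ± 8.06 and Vwf at 38.3 ± 5.73. Every gap between neighbours in this order was smaller than the larger SD of the pair, with the widest gap, 5.8, between Robo4 and Vwf. Compared with all promoters, the peaks of the 10 genes were of weak to middle strength, with a median rank of 31.6 in BPA 1 and 22.6 in BPA 2 beside 9.54 and 7.08 over all coding genes with a promoter peak.

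Among the 524 coding genes with the pattern of both BPA libraries and no control, ordered by the worse of the BPA ranks, Icam2 stood at position 43, Cdh5 at 89, Egfl7 at 91, Pecam1 at 92, Emcn at 104, Robo4 at 137 and Vwf at 156. The 3 genes at the head of that order, outside all lists used here, were Actg1 at a worse rank of 5.77, Ushbp1 at 7.51 and Bud23 at 8.92. The endothelial genes placed in this order were therefore not the strongest examples of the pattern in these libraries. This does not extend to endothelial genes in general, since Eng, of another endothelial list, stood ahead of them at a worse rank of 13.2.

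Other marker lists were read in the same way, since the tissue holds several cell types. Of 16 other endothelial surface genes, 3 had promoter peaks in both BPA libraries but no control, 10 had one in every library and 3 in none. The 3 were Eng, a co-receptor for ligands of the TGF-beta family, at ranks 13.2 and 10.1 in BPA 1 and BPA 2, Ptprb, a phosphatase that associates with VE-cadherin, at 25.7 and 11.5, and the connexin gene Gja5 at 96.3 and 66.2. Of the 10 with a peak in every library, 6 had both BPA ranks ahead of both control ranks, 4 overlapped and 0 had the control ranks ahead, beside 40.7% and 18.7% of coding genes with the BPA or the control ranks ahead. The 6 were Cd34, Cd93, Clec14a, Procr, Jam2 and Icam1. At Cd93, for example, the ranks were 73.2 and 73.1 in controls and 28.0 and 14.0 in BPA. Of 10 junction proteins found in many cell types, such as the catenin Ctnnb1 and the tight-junction scaffold Tjp1, none had the pattern, and 9 had a promoter peak in every library.

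Genes of other cell types showed the pattern in part. All 7 adipocyte genes had a promoter peak in each of the 4 libraries. Of 6 pericyte and smooth muscle genes, 4 had a peak in each control and 6 in each BPA library, the added ones being Rgs5 at ranks 90.3 and 60.0 and Des at 33.4 and 25.8. Of 4 fibroblast genes, 2 had a peak in each control and 4 in each BPA library, the added ones being Dpt at 66.5 and 36.4 and Pi16 at 50.0 and 43.8. Of 6 leukocyte genes, 2 had a peak in control 1, 3 in control 2 and 4 in each BPA library, with Cd68 (24.2 and 71.7) present only in BPA. Of 3 epithelial genes Cdh1 (66.6 and 50.2) was present only in BPA, whereas Krt8 had a peak in control 1 alone (63.6) and Epcam in all but control 2 (40.5 in control 1, 63.8 and 38.7 in BPA). Of 3 mesothelial genes none was present only in BPA, and Upk3b had a peak in both controls (34.2 and 35.3) and BPA 1 (52.2) but not in BPA 2. The 3 hepatocyte genes had no peak in any library. None of the genes of these lists had the opposite pattern. The part of cell makeup in the pattern at Pecam1, Cdh5 and the other genes was not tested. BPA 1 had the lowest background and median pile-up of the libraries and BPA 2 the highest. The median fold over all peaks was 3.91 in control 1 and 4.29 in control 2, against 5.69 in BPA 1 and 5.01 in BPA 2. The part of depth or of this difference in fold in the pattern was not tested.

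**Figure D3:**
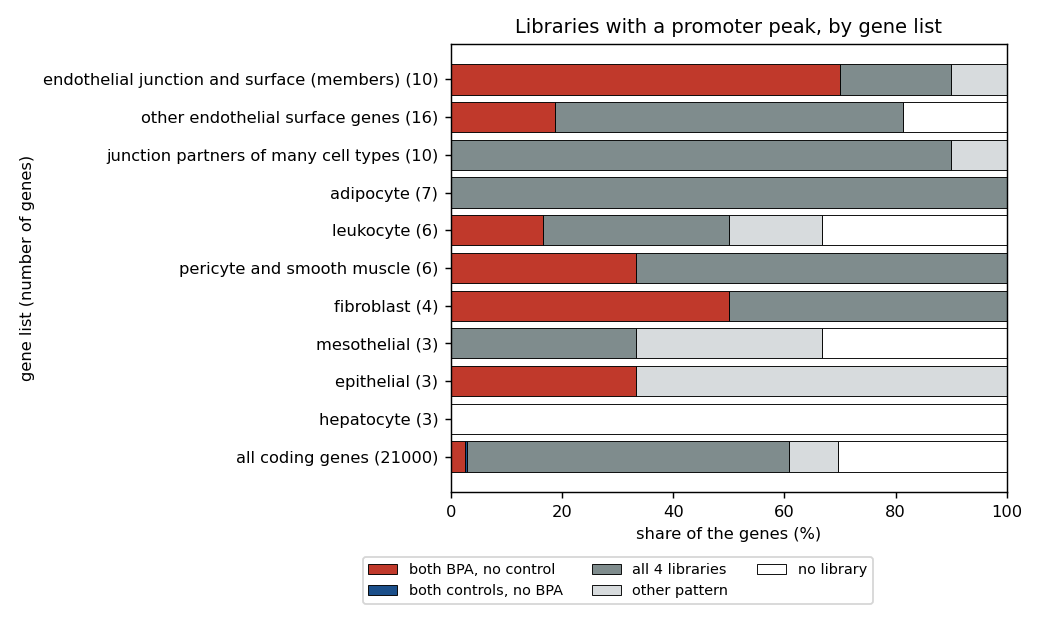
Share of genes (x axis, percent) by the libraries in which their promoter had a peak, for the 10 endothelial genes, 9 other gene lists and all 21000 coding genes, with the number of genes in parentheses. The pattern of both BPA libraries and no control (red) takes 70.0% of the 10 genes, 18.8% of the other endothelial surface genes and 2.5% of coding genes. It takes 50.0% of the fibroblast genes, 33.3% of the pericyte and smooth muscle genes, 33.3% of the epithelial genes and 16.7% of the leukocyte genes. For the adipocyte, mesothelial and hepatocyte genes and the junction partners of many cell types it is 0.0%.

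The search was then widened to the stretch from 20 kb upstream of the first start site to the end of each gene. These windows had a median length of 35.9 kb, from 21.4 kb at Cldn5 to 154 kb at Vwf, beside 37.0 kb over all coding genes. Control 1 had 32 peaks there and control 2 had 33, against 54 for BPA 1 and 57 for BPA 2. The full lists of the controls held 82665 and 88911 peaks, in the same order. The shortest list was that of BPA 1 with 72375 peaks, and the longest that of BPA 2 with 98060. The groups thus overlapped in list length but not in the counts in the windows. Those counts include the promoter peaks on which the genes were in part selected, and no such counts over all coding gene windows are given beside them. The part of list length in the window counts was not tested. The peaks in the windows merged into 78 regions. Of these, 18 were present in every library, 23 in a single library, 25 in both BPA libraries and no control, and 2 in both controls and no BPA library. The 25 regions were 32.1% of those in the windows, beside 9.4% of 147146 merged regions of the genome, and the 2 regions were 2.56% beside 5.33%. The 25 include the promoter regions of Pecam1, Cdh5, Robo4, Emcn, Egfl7, Vwf and Icam2. Those promoter regions repeat the pattern described above, and no share without them was computed.

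A stricter count asked that the peaks of both libraries of a group share at least 50% of their lengths and that no peak of the other group touch the region. Of 37 such reproducible BPA regions in the windows, 17, or 45.9%, were without a control peak, beside 19.9% of 46234 regions genome-wide. Of 15 reproducible control regions, 2, or 13.3%, were without a BPA peak, beside 11.6% of 41846. The share for BPA was thus above that of the genome and the share for controls close to it. Of the 17 regions, 4 lay at promoters of the 10 genes and so repeat in part the promoter pattern described above. The 17 regions became 4 when 80% of the lengths had to be shared, 6 among the best 20000 peaks of each library, 26 when only reproducible peaks of the other group were barred and 27 in windows from 50 kb upstream, and the 2 regions became 0 to 4 under the alternatives. At least 1 region found only in BPA lay in the windows of 8 genes, all but Cldn5 and Robo4, compared with 21.6% of coding gene windows. At least 4 lay in those of Pecam1 and Egfl7, compared with 1.31%. These 4 include promoter regions, 1 at Pecam1 and 2 at Egfl7, and neither window held 4 without them. The Pecam1 window was also long, at 81.1 kb beside a median of 37.0 kb over all coding genes. A region found only in controls lay in the windows of the neighbours Esam and Robo4, counted separately, compared with 11.4% of coding gene windows.

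**Figure D4:**
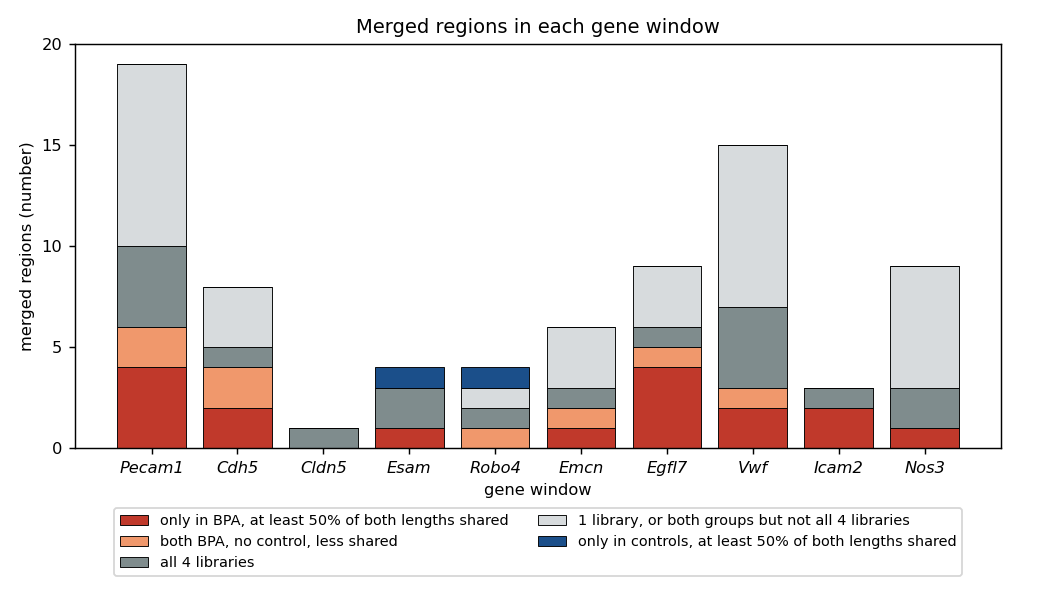
Number of merged regions in the window of each gene (y axis), stacked by the libraries in which they had a peak. Pecam1 and Egfl7 have 4 regions each that were found only in BPA, promoter regions included. Esam and Robo4 have 1 region each that was found only in controls.

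Of the 17 regions found only in BPA, 4 lay at promoters of the 10 genes and 13 elsewhere, 8 of them upstream and 5 downstream of the first start site. The promoter regions were 1 at Pecam1, 2 at Egfl7 and 1 at Icam2. The promoter peaks of Cdh5, Robo4, Emcn and Vwf were not among them because the BPA 2 peak there was more than 2 times as wide as the BPA 1 peak. The 3 regions away from promoters with the best ranks were upstream of Egfl7, Cdh5 and Emcn.

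The sequences of 151 bases around the summits of these 3 upstream regions are shown on the plus strand of GRCm38, because they were the strongest such regions away from promoters. They cover chr8:104095837-104095987 for Cdh5, chr3:137322470-137322620 for Emcn and chr2:26578473-26578623 for Egfl7. Each stretch is centred on the summit of the BPA library with the better rank. At Cdh5 that is BPA 1, and the BPA 2 summit, at 104096811, lies outside the printed bases. None of the printed stretches held any of the 6 motifs, so no letters are in capitals.
Cdh5 distal: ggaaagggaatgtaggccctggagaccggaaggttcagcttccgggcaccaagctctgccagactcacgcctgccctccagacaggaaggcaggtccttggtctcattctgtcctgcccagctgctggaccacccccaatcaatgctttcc
Emcn distal: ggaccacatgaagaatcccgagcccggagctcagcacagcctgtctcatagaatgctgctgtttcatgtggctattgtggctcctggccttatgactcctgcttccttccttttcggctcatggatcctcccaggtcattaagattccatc
Egfl7 distal: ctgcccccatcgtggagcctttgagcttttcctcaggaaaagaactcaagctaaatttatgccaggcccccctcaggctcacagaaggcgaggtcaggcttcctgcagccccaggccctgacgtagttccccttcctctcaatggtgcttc

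Upstream of Cdh5, the region chr8:104095544-104096965 had its BPA 1 summit 5713 bp before the start site, in intron 1 of the noncoding gene Gm29682. The BPA 2 summit lay nearer to the start site, at 104096811. The ranks of the region were 22.5 in BPA 1 and 23.7 in BPA 2, with folds of 6.92 and 4.42. This region was stronger by rank than the promoter peak of Cdh5 itself in both BPA libraries. The second region of Cdh5 found only in BPA lay 20.3 kb downstream, in intron 2, at ranks 51.6 and 42.8.

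Upstream of Emcn, the region chr3:137322153-137322987 had its summit 18533 bp before the start site, outside any curated gene. Its ranks were 21.5 in BPA 1 and 28.5 in BPA 2. The folds, 10.3 and 8.22, were higher than those of the Emcn promoter peak in both libraries. The only region of Emcn shared by all libraries lay in intron 5, 74.6 kb downstream.

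Egfl7 had 2 regions found only in BPA upstream of its first start site. The nearer one, chr2:26577976-26579135 with the summit 2535 bp upstream, had ranks of 30.5 and 14.6. The other, 4983 bp upstream, had ranks of 66.6 and 62.4. A wide region 9243 bp upstream was also without a control peak, at ranks 17.2 and 15.2, but its BPA peaks shared too little of their length to be counted as reproducible. From 9.24 kb upstream to the third start site, each region of Egfl7 was thus present in both BPA libraries and in no control.

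Pecam1 had, besides its promoter, 3 regions found only in BPA. They lay 15550 bp upstream at ranks 51.3 and 78.7, 5842 bp downstream in intron 2 at ranks 90.9 and 51.6, and 45393 bp downstream in intron 13 at ranks 83.1 and 58.1. These were weak peaks in at least 1 BPA library each. By the ranks of the BPA libraries the strongest region of the Pecam1 window was a shared one, also in intron 13 and 40.2 kb downstream, at 10.2 and 4.91 in BPA and at 19.8 and 31.6 in controls.

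Vwf had 2 regions found only in BPA, 17725 bp upstream at ranks 82.2 and 52.6 and in intron 50 at ranks 62.9 and 18.2. The second region of Icam2 lay 9221 bp upstream at ranks 37.9 and 36.0. The region of Esam lay in the noncoding part of exon 7 at ranks 84.5 and 78.3, and the region of Nos3 lay 12984 bp upstream at ranks 71.4 and 34.9. The Nos3 region overlapped the promoter of Kcnh2, a potassium channel gene, and is therefore not particular to Nos3 by position.

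The regions found only in controls were both in the Esam and Robo4 locus. The region chr9:37513819-37514734, 13968 bp upstream of Esam in intron 1 of Msantd2, had ranks of 38.9 in control 1 and 86.6 in control 2. The region chr9:37406335-37406964 in intron 10 of Robo4 had ranks of 34.1 and 41.2, with pile-ups of 23 and 27. At Robo4 the promoter was therefore called only in BPA and this intron, 4591 bp downstream of the start site, only in controls.

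Of the 18 regions present in every library, 8 had both BPA ranks ahead of both control ranks, 3 had both control ranks ahead and 7 overlapped between the groups. Genome-wide, 27.7% of 38725 regions present in every library had the BPA ranks ahead and 27.5% had the control ranks ahead. Besides the promoter regions of Cldn5 and Nos3, the 8 regions with the BPA ranks ahead were 3 regions of Pecam1 and 1 each of Esam, Robo4 and Egfl7. Upstream of Robo4, for example, the ranks were 37.3 and 72.9 in controls and 13.3 and 11.0 in BPA, and in intron 1 of Esam they were 47.8 and 47.9 against 18.9 and 18.4. The 3 regions with the control ranks ahead were 1 each in the gene bodies of Emcn, Vwf and Nos3. In exon 25 of Nos3 the ranks were 9.23 and 12.4 in controls and 19.7 and 13.8 in BPA.

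Genes whose promoter peak was found only in BPA could still be accessible elsewhere in every library. In intron 6 of Vwf, 20.4 kb downstream of the start site, the ranks were 1.97 and 13.5 in controls and 12.9 and 5.61 in BPA. In intron 1 of Cdh5, 9.29 kb downstream, they were 13.3 and 41.3 in controls and 16.3 and 14.5 in BPA. The groups overlapped at both regions.

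**Figure D5:**
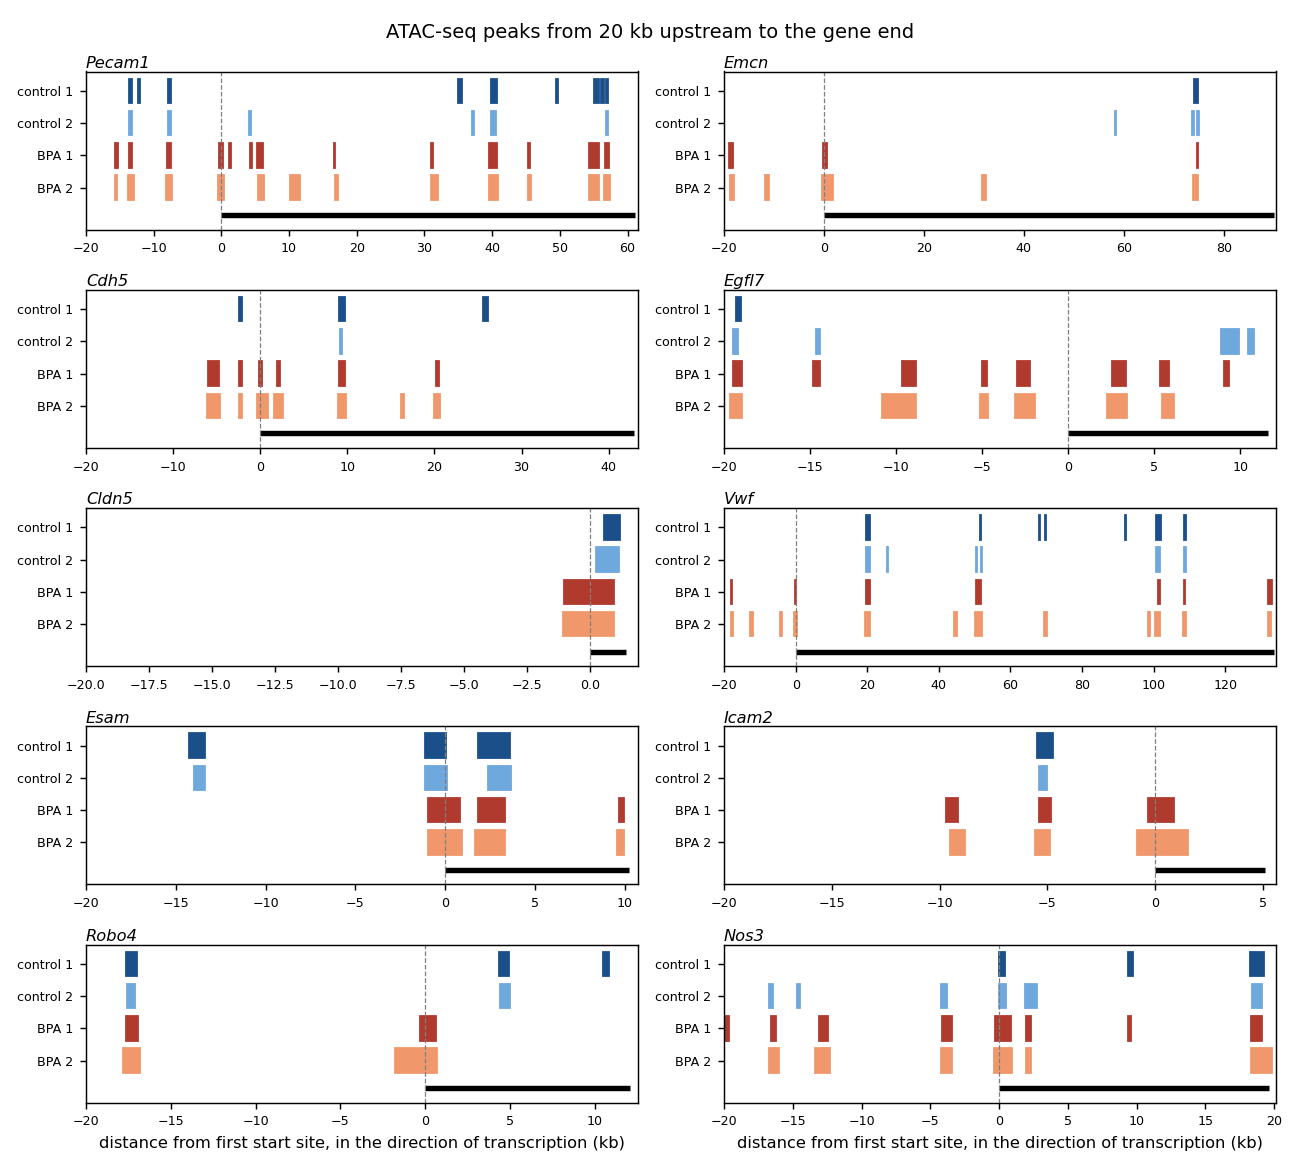
Peaks of the 4 libraries (rows) in the windows of the 10 genes, drawn to scale by distance from the first start site in the direction of transcription (x axis, kb), with the gene as a black bar and the start site as a dashed line. At the start sites of Pecam1, Cdh5, Robo4, Emcn, Vwf and Icam2 only the BPA rows hold a peak, and in the gene body of Vwf 20.4 kb downstream all 4 rows do.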

How the data were processed

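ATAC-seq was done on counted nuclei by the Omni-ATAC protocol. The submitters' processing notes name Trim Galore, Bowtie2 2.3.5.1, SAMtools and MACS2 2.2.7.1 with the build mm10, and the authors called peaks on each library alone. The deposited score, a whole number, is the −log10 q-value multiplied by 10. A deposited ratio gives the fold of pile-up over local background at the summit. The authors also deposited the −log10 p-value, the −log10 q-value, with a threshold of 0.05, and the distance of the summit from the peak start. Other caller options are not given in the sources used here.

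Peaks were ranked within each list by q-value. Pile-up and background were solved from the fold and p-value, which were met for 100% of peaks to a relative tolerance of 1e-04, and from 19572 simulated peaks the pile-up came back for 100%. On 20000 simulated sites all overlap counts were right. Start sites came from 45756 curated RefSeq transcripts on GRCm38.p6. A promoter was 500 bp either side of a start site. Reproducible peaks shared at least 50% of both lengths, checked with bedtools 2.31.1. A group-only region had no overlap of 1 bp with a peak of the other group. Scripts used Python 3.11.15, numpy 2.4.6, scipy 1.17.1, pandas 2.3.3 and matplotlib 3.10.9. The lists held 72375 to 98060 peaks and no read totals. Of all peaks, 20 lay on sequences outside the reference chromosomes and 0 beyond the chromosome ends.

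The 10 genes, the marker lists and the motifs were chosen with earlier results of these data known. All 10 genes are named, with each region found in one whole group only. Of the marker lists, genes with a promoter peak in one whole group only are named with values, beside a few named as examples. The promoter sequences of Pecam1 and Cdh5, with their motifs and CpG ratios, are not reported here. The shared regions and marker genes named as examples, the Egfl7 region without sufficient overlap, the counts by order of ranks, the background multiples, the start sites of Mir126a and Mir126b, and the CpG ratio limit of 0.6 were chosen after their values were seen. Groups were compared without a model or test. The control and BPA lists were named in different patterns, and the list of BPA 2 carries another replicate number than its label. Alternatives were stricter q-values, the best 20000 peaks, equal numbers of peaks, other promoter widths, summits in place of peaks, other overlaps and windows, leaving out each library, and, added after seeing the data, GENCODE M21 start sites.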

Additional observations from a re-analysis of the deposited data

How the results depend on the processing

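Of 83 values recomputed under alternatives, 67 stayed within 1.5 times and 16 moved. Keeping the best 20000 peaks of each list moved most, since the promoter peaks of these genes were rarely that strong: 0 genes of control 1, 0 of control 2, 3 of BPA 1 and 4 of BPA 2 had one, 3 (Cldn5, Icam2 and Nos3) had the pattern of both BPA libraries and no control, 0 had one in all libraries, and 6 regions were found only in BPA and 0 only in controls. Regions found only in controls numbered 1 when −log10 q-values of 5 or more were required, with equal numbers of peaks and with windows from 5 kb upstream. An overlap of 80% left 4 regions found only in BPA and 1 only in controls. Asking only for no reproducible peak of the other group gave 26 and 4, and windows from 50 kb upstream gave 27 found only in BPA. The same 7 genes kept the BPA pattern under that q-value limit, with equal numbers of peaks, and at 250 or 1000 bp either side. With summits, Cldn5 took the place of Robo4, and with GENCODE start sites, an alternative added after seeing the data, 5 were left (Cdh5, Robo4, Emcn, Vwf and Icam2). Leaving out 1 library gave 7 to 8 genes with the BPA pattern and 19 to 20 regions found only in BPA when a control was left out. With peaks called at each library's own depth, a missing peak is a site not detected at that depth rather than closed chromatin. No paired analysis was possible because replicate numbers in the labels tie no control mouse to a BPA mouse and the results come from counts without a test.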
